A study of Arabis alpina with 18 samples.

Results

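The 67 genes described here are receptor kinases, receptor-like proteins and genes whose descriptions share their domain terms, whose transcripts were counted by RNA sequencing in the perennial crucifer Arabis alpina. They were chosen from the authors' deposited lists of genes that differed between the mutant eop055 and the mutant pep1-1, by the words of their descriptions. A gene was a member where its description held receptor-like, receptor kinase, leucine-rich repeat or lectin together with kinase or protein, and where it had an Arabidopsis locus and 1 entry in the count table. The 67 were among 1399 such named genes, 1816 listed genes and 34220 counted genes. The plants belonged to the Pajares accession and grew under long days. The 6 groups of 3 libraries were eop055 and pep1-1 dissected shoot apices at 3 weeks, eop055 and pep1-1 dissected shoot apices at 5 weeks, and eop055 and pep1-1 leaves 5 and 6 of plants at 5 weeks. PEP1 is the A. alpina counterpart of the flowering repressor FLC of Arabidopsis, and TOE2 is the regulator of flowering that the study is about. The sources used here give neither the lesion of eop055 nor whether eop055 plants also carry pep1-1, and there is no wild type among these 18 libraries.

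Plant receptor kinases sit in the plasma membrane with an ectodomain outside the cell and a kinase inside it, and bind peptides, sugars or fragments of microbes and cell walls. Receptor-like proteins have the ectodomain without the kinase and signal through partners. Receptor-like cytoplasmic kinases have the kinase without the ectodomain and pass the signal on, while resistance proteins of the nucleotide-binding leucine-rich repeat type detect pathogen effectors inside the cell. In leaves many of these proteins act in immunity, and in apices several act in the patterning of meristems and organs.

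The members fell into 12 roles by their descriptions, a grouping made after the members were known. There were 17 leucine-rich repeat receptor kinases, 4 malectin-like receptor kinases, 2 LysM kinases, 8 lectin receptor kinases, 4 cysteine-rich kinases or relatives, 2 wall-associated kinase-like genes, 4 other kinases and 3 cytoplasmic kinases. A further 7 were intracellular resistance proteins, 7 were receptor-like or leucine-rich repeat proteins without a kinase, and 4 were lectins without a kinase. The remaining 5 carried only a shared domain term and are not receptors: the xyloglucan-modifying enzymes XTH7, XTH8 and XTH16 and the F-box proteins AT4G14096 and AT5G53635. The label of receptor kinase or receptor-like protein is also too narrow for the intracellular resistance proteins, for the lectins without a kinase and for LRX3, a cell wall extensin. Many members belong to large families of close copies, whose counts are uncertain where reads could be split between copies.

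The authors' lists held 48 members among 1027 genes higher and 4 among 150 genes lower in eop055 leaves. They held 5 among 298 higher and 8 among 274 lower in eop055 apices at 5 weeks, and 5 among 168 higher and 2 among 52 lower at 3 weeks. PXC2, AT4G14096, RLP46 and WAKL4 were listed for more than 1 tissue or age. Every listed gene had an authors' log2 fold change of at least 1.0 in size. In the authors' deposited table the listed members nearest that limit had values of 1.0 in leaves, 1.06 in apices at 5 weeks and 1.11 in apices at 3 weeks. Genes just outside the limit carry no name, so no value outside it is given. Since these lists chose the members, the genotype difference of a member in the tissue it was listed for is a description below, with no p.

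Gene counts summed to 7987096 to 14132723 per library. Whether the 3 libraries of a group came from different plants is not stated, and the p-values below therefore measure only how these libraries varied, which may be technical variation. Of 12 shoot apex markers only LFY was named here, with 0 counts in the 6 leaf libraries against 912 in the 6 apex libraries at 5 weeks. Of those 912 counts, 785 were in eop055 and 127 in pep1-1 apices. None of 10 leaf markers was named, so the tissue labels were checked by 1 gene. The 3 eop055 leaf libraries stood apart from one another: the median coefficient of variation of the members was 31.1% in eop055 leaves against 11.6% in pep1-1 leaves (13.5% and 9.63% over all genes tested). Levels are given as CPM, read counts relative to a library total scaled by the trimmed mean of M values. A gene was called where its Benjamini-Hochberg adjusted p over 21275 genes in edgeR's quasi-likelihood test was under 0.05. Of the members 66 were tested, and AT5G59660, a leucine-rich repeat kinase, was too low for the test, with 25 counts in eop055 leaves against 1 in pep1-1 leaves. In these bulk samples, fewer cells of a type and less RNA per cell cannot be told apart.

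**Figure D1:**
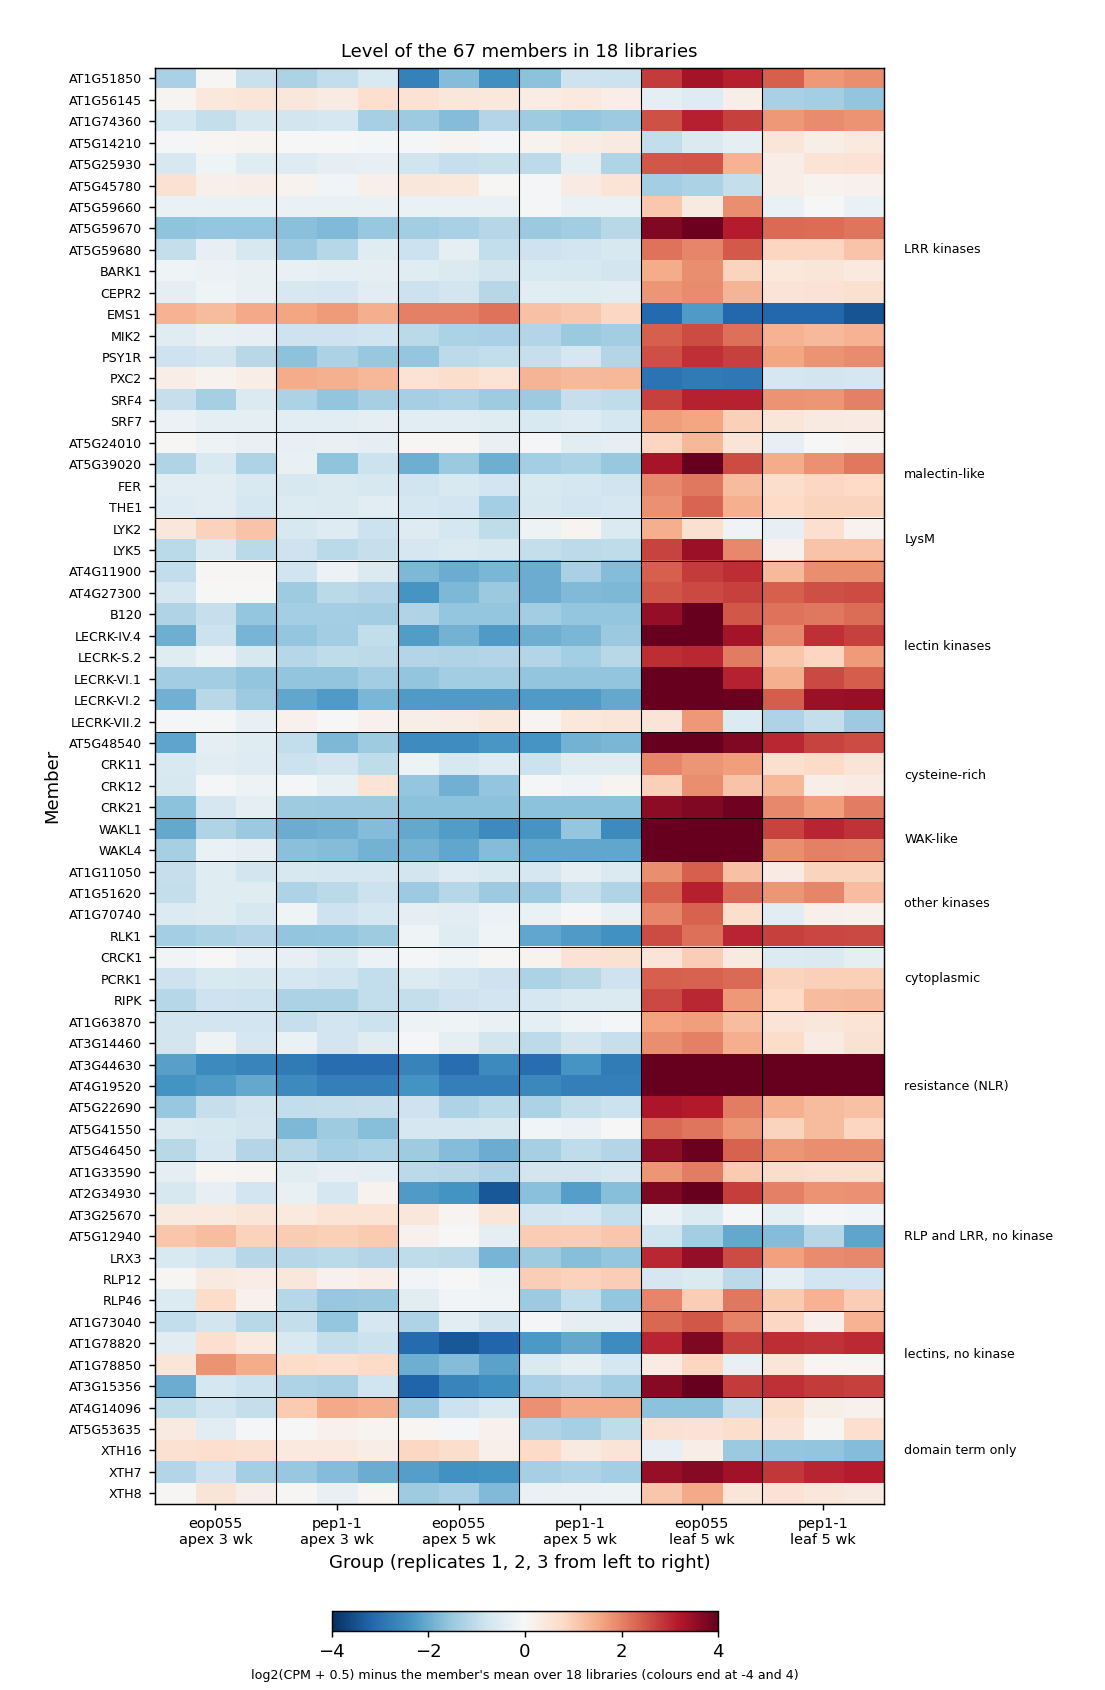
Level of each of the 67 members in the 18 libraries, as log2(CPM + 0.5) minus the member's own mean, with members in rows by role and libraries in columns by group. Most members are highest in the leaf columns, above all in eop055 leaves, while EMS1 and PXC2 are lower in leaves than in apices.

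In leaves, the malectin-like kinases FER, a receptor of RALF peptides, and THE1, a sensor of cell wall integrity, were both higher in eop055, by a like amount. FER (Aa_G122900h1) had 1271, 1445 and 814 CPM in eop055 leaves against 540.4, 591 and 582 CPM in pep1-1 leaves. Every eop055 library lay above every pep1-1 library, and the log2 fold change was 1.04 ± 0.143 (SE). THE1 (Aa_G54560h1) had 285, 396 and 211 CPM in eop055 leaves against 138, 146 and 148 CPM in pep1-1 leaves, a log2 fold change of 1.04 ± 0.193. The other members of this role, AT5G39020 and AT5G24010, had log2 fold changes of 1.66 and 1.03.

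LYK5 and several lectin receptor kinases had larger fold changes than these in leaves. LYK5 (Aa_G440110h1), which binds chitin in Arabidopsis, had 127, 208 and 72.9 CPM in eop055 leaves against 21.5, 42.5 and 42.6 CPM in pep1-1 leaves. The groups did not overlap, but the lowest eop055 library was within 2-fold of the highest pep1-1 library. LECRK-VII.2 (Aa_G44440h1), of the legume-type lectin kinases, had 10.5, 25.0 and 4.73 CPM in eop055 leaves against 2.76, 3.47 and 2.30 CPM in pep1-1 leaves. Its log2 fold change of 2.20 was the second largest rise among the tested members listed for leaves. LECRK-VI.2 (Aa_G53960h1), known from Arabidopsis for the priming of immunity, had 80.7, 123 and 36.5 CPM in eop055 leaves against 12.5, 26.1 and 26.4 CPM in pep1-1 leaves. Of the 8 lectin receptor kinases 7 were listed for leaves, and the log2 fold changes of the 8 in leaves ran between 0.11 and 2.20.

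In leaves both wall-associated kinase-like genes and 3 of the 4 cysteine-rich kinases or relatives were listed as higher in eop055. CRK12, the remaining one, had 11.1, 21.4 and 12.7 CPM in eop055 leaves against 14.6, 6.53 and 7.12 CPM in pep1-1 leaves, where the genotypes overlapped. WAKL4 (Aa_G148300h1) had 49.2, 58.0 and 33.2 CPM in eop055 leaves against 7.16, 8.06 and 7.74 CPM in pep1-1 leaves. This was the largest rise among the tested members listed for leaves, with a log2 fold change of 2.61 ± 0.217 (SE). WAKL1 (Aa_G148280h1), the other member of that role, had 99.7, 109.7 and 75.6 CPM in eop055 leaves against 18.5, 23.7 and 21.2 CPM in pep1-1 leaves. CRK21 (Aa_G200970h1), a kinase with a cysteine-rich ectodomain, had 18.1, 19.5 and 22.5 CPM in eop055 leaves against 5.42, 4.49 and 5.97 CPM in pep1-1 leaves. In CRK21 eop055 replicate 3 was the highest library, unlike in most members.

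**Figure D2:**
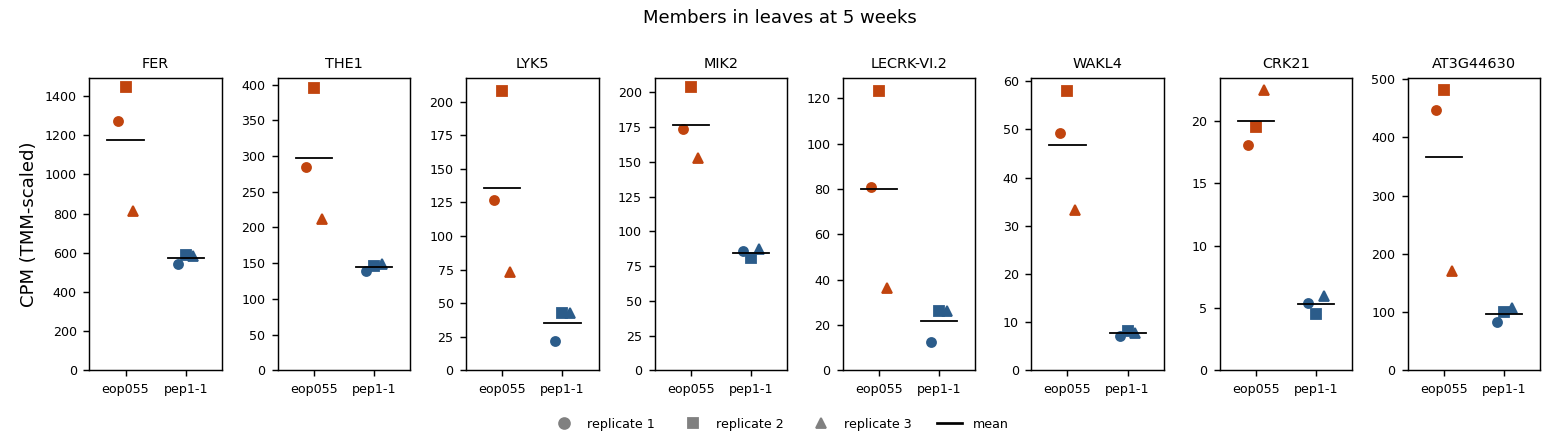
CPM of 8 members in the 3 eop055 and the 3 pep1-1 leaf libraries, with a marker for each replicate and a line at the group mean; each panel has its own linear axis from 0. No panel has an overlap between the genotypes, and replicate 3 of eop055 is the lowest of its group in every panel but that of CRK21.

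Among the leucine-rich repeat kinases the leaf differences ran in both directions. PSY1R (Aa_G347880h1), related to the receptors of sulfated peptides, had 33.4, 42.7 and 37.3 CPM in eop055 leaves against 16.5, 19.1 and 20.7 CPM in pep1-1 leaves. BARK1, which binds the co-receptor BAK1 in Arabidopsis, had 355, 460.3 and 238 CPM in eop055 leaves against 172, 179.9 and 166 CPM in pep1-1 leaves. MIK2, a receptor of SCOOP peptides, had 174, 204 and 152 CPM in eop055 leaves against 85.9, 81.1 and 87.2 CPM in pep1-1 leaves. Of the 16 tested kinases of this role 12 were called higher and 3 lower in eop055 leaves, at a median of 1.05 over the 16, beside 15% and 11.6% of all genes; the leaf lists had chosen these 15 on the same libraries. PXC2 (Aa_G271830h1), a kinase named for its coexpression with the vascular receptor PXY, had 5.04, 5.65 and 5.47 CPM in eop055 leaves against 26.8, 25.8 and 26.7 CPM in pep1-1 leaves. AT5G45780 had 2.52, 2.69 and 3.47 CPM in eop055 leaves against 8.70, 8.06 and 8.27 CPM in pep1-1 leaves. AT5G14210 had 8.21, 11.04 and 12.8 CPM in eop055 leaves against 23.3, 19.7 and 21.9 CPM in pep1-1 leaves. The genotypes did not overlap in any of these 6 kinases; over all genes tested every eop055 leaf library lay above every pep1-1 leaf library in 19.4% and below in 17.7%.

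Cytoplasmic kinases, intracellular resistance proteins and a cell wall extensin were also listed. The 3 cytoplasmic kinases PCRK1 and RIPK, both known from immune signalling in Arabidopsis, and CRCK1, a calmodulin-binding kinase, had leaf log2 fold changes between 1.17 and 1.42. All 7 intracellular resistance proteins were listed as higher in eop055 leaves, with log2 fold changes between 1.02 and 1.92. AT3G44630 (Aa_G339780h1), a resistance protein, had 447, 481 and 169.8 CPM in eop055 leaves against 82.5, 99.6 and 107.9 CPM in pep1-1 leaves. LRX3, a leucine-rich repeat extensin of the cell wall, had 602, 855 and 454 CPM in eop055 leaves against 235, 281 and 283 CPM in pep1-1 leaves. Over the 47 tested members listed as higher in leaves the median log2 fold change was 1.37, between 0.99 and 2.61. All 47 were called in edgeR, where 15% of all genes tested were called higher in eop055 leaves, but the list had chosen them on these libraries. Over the other 746 genes named and listed as higher in leaves the median was 1.57.

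Characterised receptors, ligands and immune signalling genes were taken from lists assembled from textbook knowledge, with earlier results of these data already known. Of 60 characterised receptors 9 carried a name here: the members FER, THE1, LYK5, PSY1R, EMS1 and PXC2, and MIK1, PSKR1 and SOBIR1, whose descriptions lacked the terms. Of the 9, 6 were called higher and 1 lower in eop055 leaves, beside 15% and 11.6% of all genes tested. Of 49 immune signalling genes below the receptors 27 carried a name. Of these, 25 were called higher and 0 lower in leaves, beside the same 15% and 11.6%, at a median log2 fold change of 1.72. At an unadjusted p the count of falls is 0 as well, since all 27 had a log2 fold change above 0, the lowest being 0.60. None of 14 genes for receptor ligands carried a name, so no receptor could be read beside its ligand. A name was given only to genes on the authors' own lists, so these counts are not independent evidence of a direction.

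The members that were higher in eop055 leaves were graded in the same order over the 3 eop055 libraries. Their summed level was 7881, 9527 and 4933 CPM in eop055 replicates 1, 2 and 3 against 2885, 3070.5 and 3051 CPM in the pep1-1 leaf libraries. Of the 47, 37 were highest in replicate 2 and 39 lowest in replicate 3, and 34 (72.3%) had the full order with replicate 2 above 1 above 3. That order was found in 65.5% of the other genes listed as higher in leaves and in 19.5% of all genes tested. The 27 immune signalling genes summed to 4746, 6403 and 2314 CPM in eop055 replicates 1, 2 and 3 against 1099, 1360.5 and 1339 CPM in pep1-1 leaves, and 21 of them had the same order. The 14 named genes of a list of wound and touch response genes summed to 2991, 5090.0 and 852 CPM in eop055 leaves against 342, 610.3 and 615 CPM in pep1-1 leaves, and all 14 had it. Of the 14, 13 were called higher in eop055 leaves, beside 15% of all genes tested, at a median log2 fold change of 2.44. They too carried a name only through the authors' lists. The part of these lists in the level of the members was not tested. Without eop055 replicate 2 the median log2 fold change of the 47 was 1.22, and without replicate 3 it was 1.47.

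**Figure D3:**
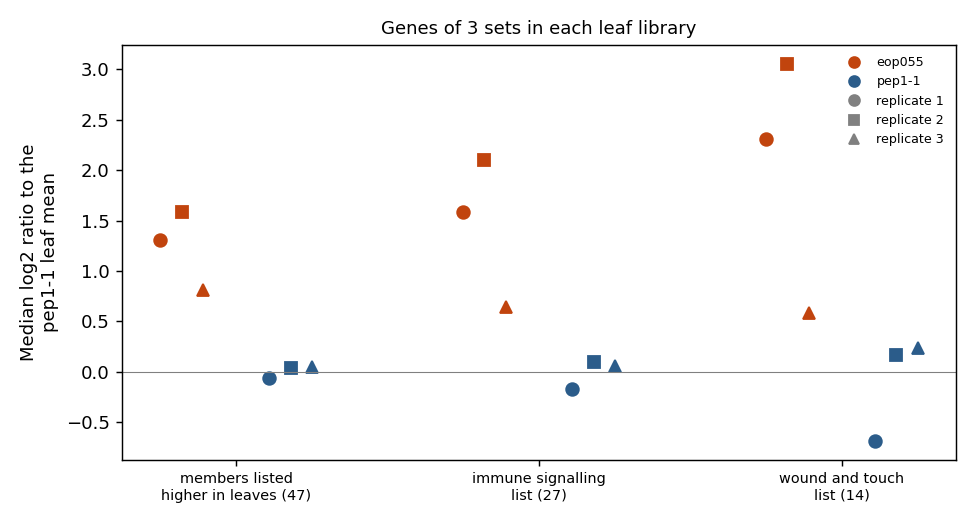
Median log2 ratio to the pep1-1 leaf mean in each leaf library, for the 47 members listed as higher in leaves, the 27 named immune signalling genes and the 14 named wound and touch genes; colours mark genotypes and marker shapes mark replicates. In all 3 sets eop055 replicate 2 is highest and eop055 replicate 3 is the lowest eop055 library, at 0.81, 0.64 and 0.59.

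The comparison of leaves with apices at 5 weeks, averaged over the genotypes, showed which members were leaf-rich and which apex-rich. Of the 66 members tested 54 were called higher and 9 lower in leaves, so 95.5% were called, against 87.2% of all genes. In leaves 40.4% of all genes were called higher and 46.8% lower. The median log2 difference of leaf over apex was 2.51 for the members and -0.14 for all genes. A gene listed for leaves must have reads in leaves, so this level is not independent of the choice of members: of those listed as higher in leaves 91.5% were called higher in leaves, against 85.4% of the other genes on that list. Without the 5 genes that carry only a domain term the counts were 51 higher and 7 lower of 61. With library totals in place of scaling factors the median of all genes moved by -0.85 on the log2 scale, and the counts of members were 52 higher and 13 lower. Over all genes 5032 were then called higher and 14517 lower in leaves, against 8604 and 9948 with scaling factors.

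Some resistance proteins and lectin kinases were close to absent from apices. AT4G19520, a resistance protein, had 251, 349 and 83.7 CPM in eop055 leaves and 63.5, 76.9 and 69.0 CPM in pep1-1 leaves, against 3 counts over the 6 apex libraries at 5 weeks. Its ratio of leaf to apex was 3885 with an exact 95% interval of 1329 to 18843, which covers counting error only, as do the intervals and bounds that follow. LECRK-VI.2 had 2630 counts in the 6 leaf libraries against 1 in the 6 apex libraries, 3974 times as many after scaling (interval 713 to 157011). CRK21, with 678 counts in leaves against 0 in apices, was at least 341-fold higher in leaves, taking a floor of 3 counts over the 6 apex libraries. WAKL4 had 1419 counts in leaves against 3 in apices, 715 times as many after scaling (interval 244 to 3470). AT3G44630 stood at 0 to 0.30 CPM in the 6 apex libraries, and its log2 difference of leaf over apex was 10.64 ± 0.460 (SE). AT4G19520, LECRK-VI.2, CRK21 and AT3G44630 were listed only for leaves, so reads in leaves were a condition of their choice. Non-overlap was a condition for naming these 5 genes: every leaf library lay above every apex library, as in 32.5% of all genes.

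The well-known receptors of the leaf set were expressed in both tissues. FER stood at 195, 221 and 196 CPM in eop055 and 218, 206 and 194 CPM in pep1-1 apices at 5 weeks, and its log2 difference of leaf over apex was 2.00 ± 0.105 (edgeR adjusted p = 2.25e-11). THE1, LYK5 and PSY1R were higher in leaves by 2.20 ± 0.144, 2.70 ± 0.257 and 3.55 ± 0.128 on the log2 scale, with edgeR adjusted p values of 2.89e-09, 2.76e-07 and 1.46e-18.

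The apex-rich members were led by EMS1 (Aa_G56650h1), which specifies the tapetum of the anther in Arabidopsis. It had 0.55, 1.35 and 0.53 CPM in eop055 and 0.51, 0.51 and 0.31 CPM in pep1-1 leaves, against 36.1, 35.9 and 40.3 CPM in eop055 and 19.9, 18.5 and 15.4 CPM in pep1-1 apices at 5 weeks. Its log2 difference of leaf over apex was -5.44 ± 0.152 (edgeR adjusted p = 8.1e-21). PXC2 followed with -2.82 ± 0.0589 and an edgeR adjusted p of 2.11e-23. AT5G12940, a leucine-rich repeat protein, had -2.12 ± 0.176 (edgeR adjusted p = 3.92e-10). AT1G56145, a leucine-rich repeat kinase listed as higher in eop055 leaves, had -1.31 ± 0.135 (edgeR adjusted p = 2.37e-09), and RLP12, which has no kinase, had -1.16 ± 0.0984 (edgeR adjusted p = 5.65e-11). Non-overlap was again a condition for naming these 5 genes: every leaf library lay below every apex library, as in 36.8% of all genes.

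Of the 13 members listed for apices at 5 weeks, RLK1, EMS1 and CRK12 were kinases and the other 10 were not. All 13 listed members passed the test here too, beside 7.16% of all genes called higher and 7.3% called lower, but the lists had chosen them on these libraries. RLK1 (Aa_G549050h1), a receptor-like kinase, had 21.7, 17.2 and 21.8 CPM in eop055 against 5.34, 4.65 and 4.11 CPM in pep1-1 apices at 5 weeks. This log2 fold change of 2.09 was the largest rise. In 3-week apices RLK1 had 9.26, 9.94 and 10.5 CPM in eop055 against 7.92, 8.01 and 8.82 CPM in pep1-1. EMS1 was higher in eop055 apices at 5 weeks with a log2 fold change of 1.06, and no library of the genotypes overlapped. At 3 weeks EMS1 had 23.2, 21.3 and 24.9 CPM in eop055 against 26.4, 28.6 and 24.2 CPM in pep1-1 apices, where the groups overlapped. AT5G53635, one of the F-box proteins, had 2.40, 2.20 and 2.63 CPM in eop055 against 0.70, 0.59 and 0.87 CPM in pep1-1 apices at 5 weeks. AT3G25670, a leucine-rich repeat protein, had 13.6, 10.5 and 13.8 CPM in eop055 against 5.60, 5.84 and 4.81 CPM in pep1-1.

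The lower members in eop055 apices at 5 weeks were led by the F-box protein AT4G14096, described below, and by CRK12 (Aa_G200910h1), a cysteine-rich kinase. CRK12 had 1.58, 1.101 and 1.51 CPM in eop055 against 5.22, 4.95 and 5.95 CPM in pep1-1, a log2 fold change of -1.94. Lectins without a kinase came next. AT3G15356, a legume lectin protein, had 3.77, 5.81 and 6.57 CPM in eop055 against 15.5, 16.9 and 14.3 CPM in pep1-1 apices. AT1G78850, a mannose-binding lectin, had 5.15, 6.11 and 4.53 CPM in eop055 against 14.3, 16.7 and 13.3 CPM in pep1-1. XTH8 (Aa_G469920h1), a cell wall enzyme, had 21.5, 23.2 and 16.8 CPM in eop055 against 48.5, 49.4 and 50.6 CPM in pep1-1. None of these 4 genes overlapped between the genotypes at 5 weeks, where 15.1% of all genes lay wholly lower in eop055, while all 4 overlapped at 3 weeks. RLP12, a receptor-like protein, had 15.0, 15.8 and 13.9 CPM in eop055 against 32.5, 30.8 and 32.5 CPM in pep1-1 apices at 5 weeks, but 16.7, 20.8 and 19.7 CPM in eop055 against 22.3, 18.3 and 19.3 CPM in pep1-1 apices at 3 weeks, where the genotypes overlapped.

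**Figure D4:**
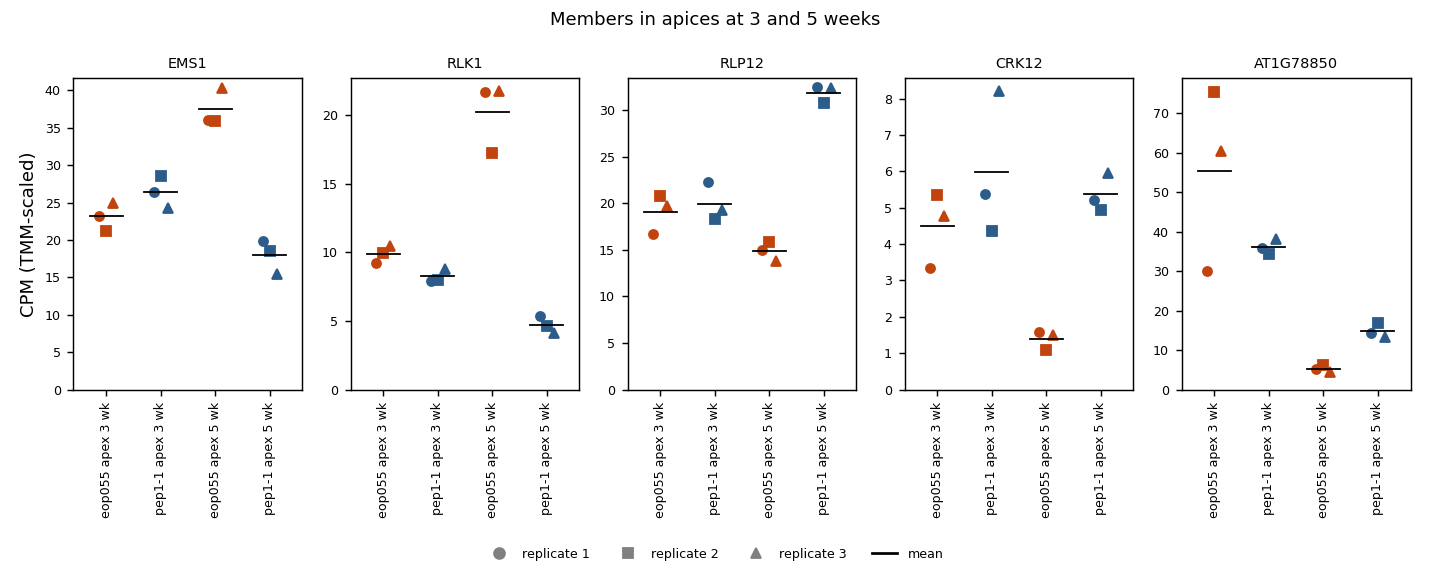
CPM of EMS1, RLK1, RLP12, CRK12 and AT1G78850 in eop055 and pep1-1 apices at 3 and 5 weeks, with a marker for each replicate and a line at the group mean; each panel has its own linear axis from 0. At 5 weeks EMS1 and RLK1 are higher and RLP12, CRK12 and AT1G78850 lower in eop055, without overlap.

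In apices at 3 weeks few members were listed. Of the 7 listed, 6 passed the test here, beside 2.58% of all genes called higher and 1.1% called lower, again on the libraries that chose them. RLP46 (Aa_G185610h1), a receptor-like protein, had 4.02, 10.4 and 7.04 CPM in eop055 against 2.54, 1.80 and 1.85 CPM in pep1-1 apices. AT4G27300, an S-locus lectin kinase, had 5.45, 9.19 and 9.15 CPM in eop055 against 3.07, 4.01 and 3.76 CPM in pep1-1. AT1G78820, a mannose-binding lectin that did not pass the test here, had 11.8, 26.1 and 21.6 CPM in eop055 against 10.7, 8.15 and 8.76 CPM in pep1-1. In each of these genes eop055 replicate 1 was the lowest eop055 library, and the genotypes did not overlap, as for 13.6% of all genes with eop055 above. LYK2, a LysM kinase near the detection limit, had 13, 21 and 22 counts in eop055 against 2, 3 and 1 counts in pep1-1 apices.

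The members listed for 1 tissue or age were then read in the libraries of the others. In leaves, 5 of 18 members listed for apices were called, 3 higher and 2 lower, so 27.8% were called against 26.6% of all genes. In apices at 5 weeks, 7 of 55 tested members listed for leaves or for 3-week apices were called, 2 higher and 5 lower, or 12.7% against 14.5% of all genes. In both cases the share was near that of all genes. The 2 rises at 5 weeks became 0 without pep1-1 replicate 1, without pep1-1 replicate 2 or without eop055 replicate 1, and 1 without pep1-1 replicate 3 or eop055 replicate 2. The 5 falls became 2 without pep1-1 replicate 3 and 3 without eop055 replicate 2 or 3. Calls over all genes dropped as well: 1524 higher and 1553 lower became 1006 to 1407 and 1187 to 1425 with 1 library left out. In apices at 3 weeks, 7 of 63 tested members listed for other libraries were called, 5 higher and 2 lower, or 11.1% against 3.68% of all genes. The count of rises at 3 weeks fell to 1 without pep1-1 replicate 2, to 2 without pep1-1 replicate 3 and to 2 without eop055 replicate 2. Over all genes the 548 calls higher at 3 weeks fell to 252, 290 and 280 in the same settings. Of the 47 tested members listed as higher in leaves 76.6% had a log2 fold change above 0 at 3 weeks, with a median of 0.27, against 64.1% and a median of 0.11 for the other genes on that list. Of these calls, 4 of the 7 at 3 weeks, 2 of the 7 at 5 weeks and 3 of the 5 in leaves were of members that the authors had also listed for those same libraries. Among members that were not, 2 of 15 were called in leaves (13.3%), 5 of 53 in apices at 5 weeks (9.43%) and 3 of 59 in apices at 3 weeks (5.08%). The shares of all genes still include the genes listed for those libraries. These 3 shares are therefore not alike in kind to those of all genes, and do not decide whether the members stood out.

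Outside the lists' own libraries, AT5G41550 (Aa_G84820h1), a resistance protein listed as higher in eop055 leaves, differed in direction between the 2 ages, a contrast that was not itself tested. It had 2.26, 2.26 and 2.37 CPM in eop055 against 3.63, 3.27 and 4.02 CPM in pep1-1 apices at 5 weeks, a log2 fold change of -0.66 ± 0.206 (edgeR adjusted p = 0.031). At 3 weeks it had 2.45, 2.33 and 2.19 CPM in eop055 against 0.77, 1.17 and 0.86 CPM in pep1-1 apices, a log2 fold change of 1.30 ± 0.254 (edgeR adjusted p = 0.00378). The fall at 5 weeks was not called in 6 of 13 alternative settings, among them leaving out any eop055 replicate or pep1-1 replicate 1 or 3, with edgeR and DESeq2 adjusted p values between 0.0282 and 0.107. CRCK1, higher in eop055 leaves, was lower in eop055 apices at 5 weeks with a log2 fold change of -0.54 ± 0.146 (edgeR adjusted p = 0.0133), and CEPR2, a receptor of CEP peptides, with one of -0.45 ± 0.120 (edgeR adjusted p = 0.0159). PCRK1 had a log2 fold change of 0.40 ± 0.110 there (edgeR adjusted p = 0.0145), with 17.6, 16.0 and 14.5 CPM in eop055 against 10.4, 11.8 and 14.4 CPM in pep1-1. CRCK1 lost its call when pep1-1 replicate 2, pep1-1 replicate 3 or eop055 replicate 2 was left out (adjusted p 0.0031 to 0.0731 over its settings), and PCRK1 when pep1-1 replicate 1, pep1-1 replicate 2 or eop055 replicate 1 was left out (adjusted p 0.00359 to 0.130). The call of CEPR2 was not followed over every setting. It was lost without pep1-1 replicate 3, where PXC2 and AT4G14096 were the only falls left among members listed for other libraries.

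XTH7, listed as lower in eop055 apices at 5 weeks, was higher in eop055 in the other libraries. In leaves it had 487, 541 and 442 CPM in eop055 against 311, 363 and 386 CPM in pep1-1, a log2 fold change of 0.47 ± 0.111 (edgeR adjusted p = 0.00371). In apices at 3 weeks it had 18.7, 23.8 and 16.4 CPM in eop055 against 14.8, 12.7 and 10.5 CPM in pep1-1, a log2 fold change of 0.64 ± 0.140 (edgeR adjusted p = 0.013), which was lost without pep1-1 replicate 2 or 3 or eop055 replicate 2 (adjusted p 0.000923 to 0.0743 over its settings). At 5 weeks the apices had 8.99, 7.58 and 7.89 CPM in eop055 against 16.9, 17.9 and 16.5 CPM in pep1-1. XTH8 was called in leaves with a log2 fold change of 0.63 ± 0.211 (edgeR adjusted p = 0.0418), although its libraries overlapped. The call of XTH8 was lost in 8 of 13 alternative settings, among them leaving out any leaf library but eop055 replicate 3, with adjusted p values from 0.000807 to 0.192. MIK2, listed for leaves, was higher in eop055 apices at 3 weeks, with 23.4, 26.3 and 25.8 CPM against 18.3, 18.2 and 18.8 CPM in pep1-1 and a log2 fold change of 0.45 ± 0.101 (edgeR adjusted p = 0.0114). The call of MIK2 was not followed over every setting. It was lost without pep1-1 replicate 2, where AT5G41550 was the only rise left among members listed for other libraries.

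PXC2 was lower in eop055 than in pep1-1 in leaves and in apices of both ages. In apices at 3 weeks it had 51.7, 47.2 and 52.2 CPM in eop055 against 121.0, 115 and 107.6 CPM in pep1-1, and at 5 weeks 64.9, 69.8 and 62.2 CPM in eop055 against 111, 105 and 108 CPM in pep1-1. The 5-week apices were not among the libraries it was listed for, and there its log2 fold change of -0.72 ± 0.0666 had an edgeR adjusted p of 6.53e-08. It kept this call in all 13 alternative settings, with log2 fold changes between -0.78 and -0.69. The log2 fold changes at 3 weeks and in leaves, where it was listed, were -1.18 and -2.30.

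AT4G14096 (Aa_G430920h1), an F-box protein with leucine-rich repeats and not a receptor, was listed as lower in eop055 for all 3 tissues and ages. It had 4, 6 and 4 counts in eop055 against 36, 57 and 60 counts in pep1-1 apices at 3 weeks, and 1, 6 and 8 counts in eop055 against 80, 40 and 45 counts in pep1-1 apices at 5 weeks. In leaves it had 0, 0 and 3 counts in eop055 against 20, 13 and 12 counts in pep1-1. Every eop055 library of AT4G14096 lay below every pep1-1 library of the same tissue and age. RLP46 was listed as higher in eop055 apices at both ages, and at 5 weeks had 4.46, 5.69 and 5.45 CPM in eop055 against 1.91, 2.87 and 1.75 CPM in pep1-1. The call of RLP46 at 5 weeks was lost in 8 of 13 alternative settings, among them leaving out any 1 of the 6 libraries, and its call at 3 weeks in 2 of 13, without pep1-1 replicate 2 or 3. In leaves it had 25.2, 12.5 and 28.1 CPM in eop055 against 13.3, 16.8 and 12.6 CPM in pep1-1, where the groups overlapped. WAKL4 was listed as higher in eop055 at 3 weeks on 5, 18 and 14 counts against 2, 2 and 1 counts in pep1-1 apices, and that call was lost in 5 of 12 settings, each without 1 library other than eop055 replicate 1. At 5 weeks WAKL4 was at or under 2 counts in each apex library of either genotype.

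**Figure D5:**
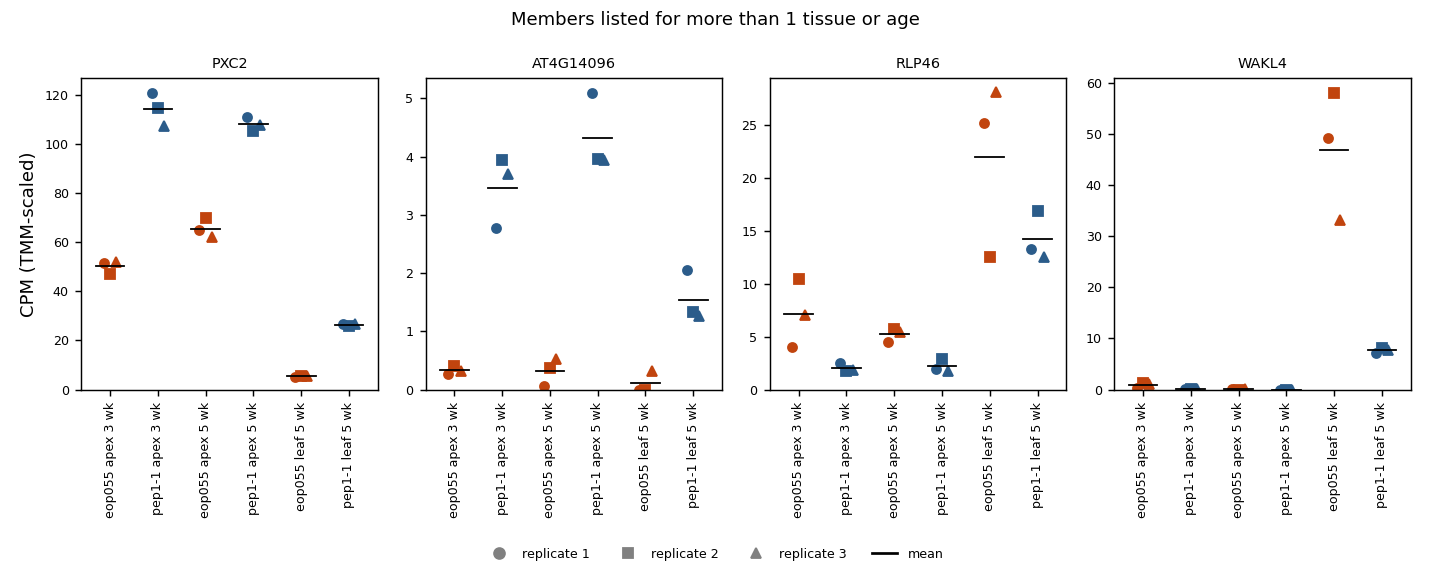
CPM of PXC2, AT4G14096, RLP46 and WAKL4 in the 6 groups, with a marker for each replicate and a line at the group mean; each panel has its own linear axis from 0. PXC2 and AT4G14096 are lower in eop055 in each pair of groups, while WAKL4 is near 0 in apices and its eop055 leaf libraries lie between 33.2 and 58.0 CPM.

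With age, averaged over the genotypes, more members in apices were called lower than higher. At 5 weeks 5 members were called higher and 24 lower than at 3 weeks, and 37 did not pass the test. Within eop055 4 members were called higher and 22 lower, and within pep1-1 8 were called higher and 11 lower, a difference between the genotypes that was not tested. The lists that chose the members used the same apex libraries. Of 8 members listed as lower in eop055 apices at 5 weeks, 7 were called lower within eop055 and 1 within pep1-1. Of 5 listed as higher there, 0 and 4 were called lower. Shares of all genes within each genotype are not given, so these counts do not set the members apart. For the average over the genotypes, the 43.9% called compare with 49.3% of all genes, which split into 24% higher and 25.3% lower. The median log2 difference of 5 over 3 weeks was -0.29 for the members and 0.01 for all genes. Of 48 members listed as higher in leaves, 47 were tested and 29.8% were called lower with age, against 20.8% of the other 746 genes on that list. With library totals in place of scaling factors the counts were 9 higher and 23 lower, and the median of all genes moved by 0.12. Over all genes 7891 were then called higher and 3631 lower with age, against 5114 and 5376 with scaling factors. Genes near the detection limit are among the falls: WAKL4 had 3 counts in the 6 libraries at 5 weeks against 42 at 3 weeks, a ratio of 13.6 lower with an exact 95% interval of 4.35 to 68.7, and CRK21, at 0 counts against 19, was at least 6.16-fold lower.

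The largest falls with age among members of at least 2 CPM were those of lectins without a kinase. AT1G78820 had 1.51, 1.101 and 1.38 CPM in eop055 and 2.93, 3.56 and 2.45 CPM in pep1-1 apices at 5 weeks, against 11.8, 26.1 and 21.6 CPM in eop055 and 10.7, 8.15 and 8.76 CPM in pep1-1 apices at 3 weeks. It fell by 2.76 ± 0.299 on the log2 scale (edgeR adjusted p = 6.2e-06), and AT1G78850 by 2.34 ± 0.241 (edgeR adjusted p = 3.85e-06). AT2G34930, a leucine-rich repeat protein of the disease resistance family, fell by 1.90 ± 0.287 (edgeR adjusted p = 0.000125). The S-locus lectin kinase AT4G27300 fell by 1.31 ± 0.162 (edgeR adjusted p = 8.23e-07) and the leucine-rich repeat protein AT1G33590 by 0.71 ± 0.140 (edgeR adjusted p = 0.000852). Non-overlap was a condition for naming these 5 genes: the 6 libraries at 5 weeks lay below the 6 at 3 weeks. This was so for 12.9% of all genes.

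Rises with age were small. AT1G63870, a resistance protein, had 65.6, 67.7 and 64.0 CPM in eop055 and 59.6, 69.0 and 72.4 CPM in pep1-1 apices at 5 weeks, against 45.7, 44.8 and 44.5 CPM in eop055 and 40.3, 44.9 and 41.4 CPM in pep1-1 apices at 3 weeks. Its log2 difference of 0.61 ± 0.0658 had an edgeR adjusted p of 7.23e-08 and was called in all 19 alternative settings. AT5G59670, a leucine-rich repeat kinase, had a log2 difference of 0.31 ± 0.122 (edgeR adjusted p = 0.0472), and this call was lost in 12 of 19 alternative settings, 9 of which left out 1 library (adjusted p 0.00103 to 0.116). The other 3 called rises, of AT5G41550, CRCK1 and PXC2, were of 0.96, 0.45 and 0.15 on the log2 scale, with libraries of the 2 ages overlapping. EMS1 and RLK1 did not pass the test of the average, with log2 differences of 0.07 ± 0.0829 and 0.12 ± 0.149; in both genes the genotypes differed in the direction of the change.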

How the data were processed

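Per the labels' protocols, libraries were directional, from poly(A) RNA, with single reads. The authors deposited raw read counts per gene for 18 libraries; STAR, DESeq, DESeq2 and HTSeq 0.5.4p1 appear in the submitters' processing notes. Their deposited lists, per the file headers, hold the authors' log2 fold changes and adjusted p-values, and Arabidopsis loci with descriptions. The sources used here name no genome build, annotation or strand setting, so antisense and overlapping genes cannot be separated, and no sequence is shown. Entries that name no gene (7.76 to 16.6% of reads outside genes and 2.01 to 3.60% ambiguous) were left out.

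The deposited counts went into edgeR 4.0.16 (with limma 3.58.1, R 4.3.3): filterByExpr (21275 genes), TMM factors (0.651 to 1.27), 1 robust fit of 6 group means and the quasi-likelihood F test, with Benjamini-Hochberg adjustment over all genes tested. The biological coefficient of variation was 9.65%. Standard errors are the log2 fold change over the root of F. Members and lists were chosen with earlier results of these data known. Members were found by description alone; a looser reading of the terms would add 2 genes. Named members were, per genotype comparison, the 5 largest rises and falls with at least 2 CPM; per test of age or tissue, the 5 largest calls in each direction without overlap; up to 4 calls per direction in libraries a list had not used; those on a list of characterised receptors; and those listed more than once. RIPK, AT5G39020, AT5G24010, BARK1, LRX3, LYK2, MIK2, CEPR2 and AT5G59660 complete a role or count and were named after their values were seen. On simulated counts the test recovered 95.5% of 67 genes changed 2-fold by age among 20224 genes and 88.1% of 67 by tissue among 20861, with false calls of 4.23% and 3.89%. Alternatives were RLE scaling, library totals, DESeq2 1.42.0, no filter, at least 50 counts in 3 libraries or more, fits of only the libraries compared, the replicate number as a block, an adjusted p of 0.01, a 2-fold minimum and leaving out each library. Figures were drawn with matplotlib 3.10.9.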

Additional observations from a re-analysis of the deposited data

Results flagged for a closer look

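Genotype differences that ran in opposite directions in 2 tissues or ages, with no overlap of libraries in either, were found for 8 members whose values follow. RIPK and CEPR2, also named here, had such differences in leaves and in apices at 5 weeks, and CEPR2 also in apices at 5 and at 3 weeks. Over all tested members it was 13 of 66 (19.7%), against 11.2% of all genes tested; the lists had already picked most members for a difference in 1 of these tissues or ages, so the 2 shares are not alike in kind. These differences between tissues or ages were not tested, and the values are log2 fold changes of eop055 over pep1-1. In leaves and in apices at 5 weeks they were 0.99 and -0.44 for AT1G33590, 1.75 and -0.84 for AT2G34930, 1.17 and -0.54 for CRCK1, 1.11 and -0.66 for AT5G41550, and 0.47 and -1.07 for XTH7. In leaves and in apices at 3 weeks they were 2.20 and -0.26 for LECRK-VII.2, and -1.52 and 0.31 for AT5G45780. In apices at 5 and at 3 weeks they were -0.54 and 0.26 for CRCK1, -0.66 and 1.30 for AT5G41550, -1.15 and 1.11 for AT1G78820, and -1.07 and 0.64 for XTH7. Each of these members was listed by the authors for 1 of the tissues or ages concerned. CRCK1, AT5G41550 and CEPR2 were listed only for leaves, so neither side of their difference between the apex ages was a listed one.

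The age difference ran in opposite directions in the 2 genotypes, without overlap, for 4 members listed for apices at 5 weeks, or 6.06% of the 66 tested, against 3.28% of all genes. The log2 differences of 5 over 3 weeks in eop055 and in pep1-1 were 1.03 and -0.80 for RLK1, 0.70 and -0.55 for EMS1, -0.36 and 0.68 for RLP12, and -1.27 and 0.44 for XTH7. These were not tested either, and the choice of the members used the 5-week libraries.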

How the results depend on the processing

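No count or named call reversed under any alternative, and 25 of 34 named calls held in all those run for them. The leaf against apex counts and the falls in 3-week apices and in leaves stayed within 1.5 times of the main values under every alternative. Members higher with age numbered 5, against 3 at an adjusted p of 0.01, 0 with a 2-fold minimum, 3 with RLE scaling, 9 with library totals and 8 with only the libraries compared; members lower numbered 24, against 12 with a 2-fold minimum. Leaf rises of apex-listed members went from 3 to 1 with a 2-fold minimum. In 5-week apices the 2 rises became 0 at an adjusted p of 0.01 and 1 with a 2-fold minimum, with no filter or with a replicate block, and ranged between 0 and 2 over single libraries left out. The 5 falls there became 2 at 0.01, 1 with a 2-fold minimum and 9 with only the libraries compared, and ranged between 2 and 4 over single libraries left out. In 3-week apices the 5 rises became 1 at 0.01 and 3 with a 2-fold minimum, and ranged between 1 and 7 over single libraries left out. The cause of these shifts was not tested, beyond the stricter limits. Same-numbered libraries correlated between -0.18 and 0.06 over 21 pairs, so no pairing by number was seen. With 3 libraries per group this does not exclude a shared batch. With the replicate number as a block, the calls of RLP46 in 5-week apices and of AT5G59670 with age were lost. WAKL4 had too few reads at 3 weeks to give a value with at least 50 counts in 3 libraries. Calls on genes near 1 CPM rest on few counts.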
